A study of Mus musculus with 66 samples.

Results

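The genes described here are the heat shock proteins, their J-protein and BAG partners, and the cytosolic chaperonin of mouse small intestinal organoids. They were chosen by name from the expression table. Symbols starting with Hsp or Dnaj were taken, as were those starting with Cct or Bag and followed by a digit, whereas Hspb1 and symbols starting with Hspg were left out. The rule gave 67 genes, represented by 69 transcripts, of 8978 genes and 9481 transcripts listed. It used no measured value, though members and the lists they are grouped in below were chosen with earlier results of these data known. The rule also keeps genes that carry the name without being chaperones, and it misses chaperones named otherwise. Organoids of 1 line, carrying an Lgr5 GFPDTR allele that all cultures shared, were grown in 3 media. ENR organoids grew in the regular medium with EGF, Noggin and R-Spondin. CV organoids grew in ENR medium with 3 µM CHIR99021, an inhibitor of the kinase GSK3, and 1 mM valproic acid, an inhibitor of histone deacetylases, which enriches stem cells. EN organoids grew without R-Spondin-1, which depletes stem cells. By the study's methods, CV organoids spent longer in their medium than EN organoids. Medium and time in it therefore cannot be told apart between these cultures. RNA-seq and ATAC-seq, which measures accessible chromatin, had 4 libraries for each culture, whereas ChIP-seq of the histone marks H3K27ac, H3K4me3 and H3K27me3 had 3 with scores in the region table, and ChIP-seq of the transcription factor Hnf4g had 1. The labels list 37 histone libraries for these cultures, of which the 10 without scores there were not analysed here.

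Chaperones bind unfolded or partly folded proteins and help them reach or regain their shape. HSP70 proteins clamp short stretches of client protein in a cycle driven by ATP; J-proteins (the Dnaj genes) deliver clients and start the hydrolysis of ATP, and nucleotide exchange factors, among them the BAG and HSP110 proteins, release the client again. HSP90 acts later on kinases, receptors and other nearly folded clients. The chaperonins are barrels that enclose a client: TRiC, made of Tcp1 and the Cct subunits, folds actin and tubulin in the cytosol, and Hspd1 with its lid Hspe1 folds imported proteins in mitochondria. Each compartment has its own HSP70, which is Hspa5 in the endoplasmic reticulum (ER) and Hspa9 in mitochondria. The factor Hsf1 drives many of these genes after heat or other stress, and the unfolded protein response, sensed by Atf6, Ern1 and Eif2ak3, drives those of the ER.

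The RNA libraries held 5630977 to 8859757 counts each. Levels are given as counts per 1000000 (CPM) after TMM scaling, and levels of different genes are compared only in transcripts per 1000000 (TPM), which takes length into account. Summed over their lists, 6 stem cell markers were at 627 to 664 CPM in CV, 617 to 655 in ENR and 41.5 to 49.1 in EN. Between CV and ENR the stem cell markers did not move together: Lgr5, Axin2 and Smoc2 were lower in CV by log2 values of -0.52, -0.22 and -0.20, whereas Cd44 was higher by 2.02. Another 5 genes, the enterocyte markers, were at 1417 to 1478, 1197 to 1320 and 4181 to 4404 CPM. The proliferation markers stood at 961 to 1006 CPM in CV, 1306 to 1356 in ENR and 156 to 164 in EN, and the part of these shifts in any chaperone difference below was not tested. In bulk samples, fewer cells of a type and less RNA per cell cannot be told apart. Goblet, enteroendocrine and tuft cell markers were highest in EN, at 2598 to 2958, 1283 to 1763 and 55.9 to 74.4 CPM, and Paneth cell markers lowest, at 1058 to 1269 CPM. Lyz1 made up most of the Paneth sum, while Defa6, another Paneth marker, had a mean of 81.8 CPM in CV, 381 in ENR and 156 in EN. Markers of mesenchyme and immune cells summed to 3.47 to 4.72 CPM in CV, 8.31 to 9.98 in ENR and 23.6 to 29.4 in EN, with Vim and Ptprc called higher in EN than in CV and ENR. Vim, at a mean of 23.3 CPM in EN, made up most of that sum. Col1a1, near the floor, had means of 0.85 CPM in CV, 0.145 in ENR and 0.179 in EN. It was called higher in CV than ENR (log2 2.45) and was not called in the EN comparisons. Col1a2 was called in no comparison. A difference between cultures is relative to the scaling: the median over all transcripts of EN over CV was -0.08 on the log2 scale with TMM, -0.49 with scaling to the added spike-in RNA, -0.34 in TPM and 0.69 in the authors' mRNA copies. For EN over ENR these medians were -0.01, -0.52, -0.14 and 1.02, and for CV over ENR -0.01, -0.10, 0.13 and 0.25. Of the called changes of the named members, all kept their sign relative to that median under each scaling, except CV over ENR of Hsp90b1 in mRNA copies.

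The members together made up 1.32 to 1.36% of all TPM in CV, 1.20 to 1.21% in ENR and 0.715 to 0.779% in EN, so that the 3 cultures did not overlap. HSP70 and HSP110 proteins of the cytosol were the most abundant list, at 3885 ± 34.9 TPM (SD, n = 4) in CV, 4025 ± 29.6 in ENR and 3012 ± 82.1 in EN. Hspa8, the constitutive HSP70, provided most of it. Its EN over CV log2 value was -0.28 in TPM, whereas with TMM Hspa8 was not called in that comparison. The median of all transcripts in TPM was -0.34 for EN over CV, and the sums here are not corrected for that shift. The TRiC subunits summed to 2887 TPM in CV, 2485 in ENR and 993 in EN, and mitochondrial Hspa9, Hspd1 and Hspe1 to 1901, 1658 and 534. The 3 HSP90 genes summed to 1346 TPM in CV, 1121 in ENR and 513 in EN. In contrast, BAG co-chaperones summed to 355, 389 and 410 TPM, and J-proteins of the ER to 357, 265 and 325. The chaperonin and HSP90 lists thus had their lowest sums in EN, whereas the lowest sum of the ER J-proteins was that of ENR.

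**Figure D1:**
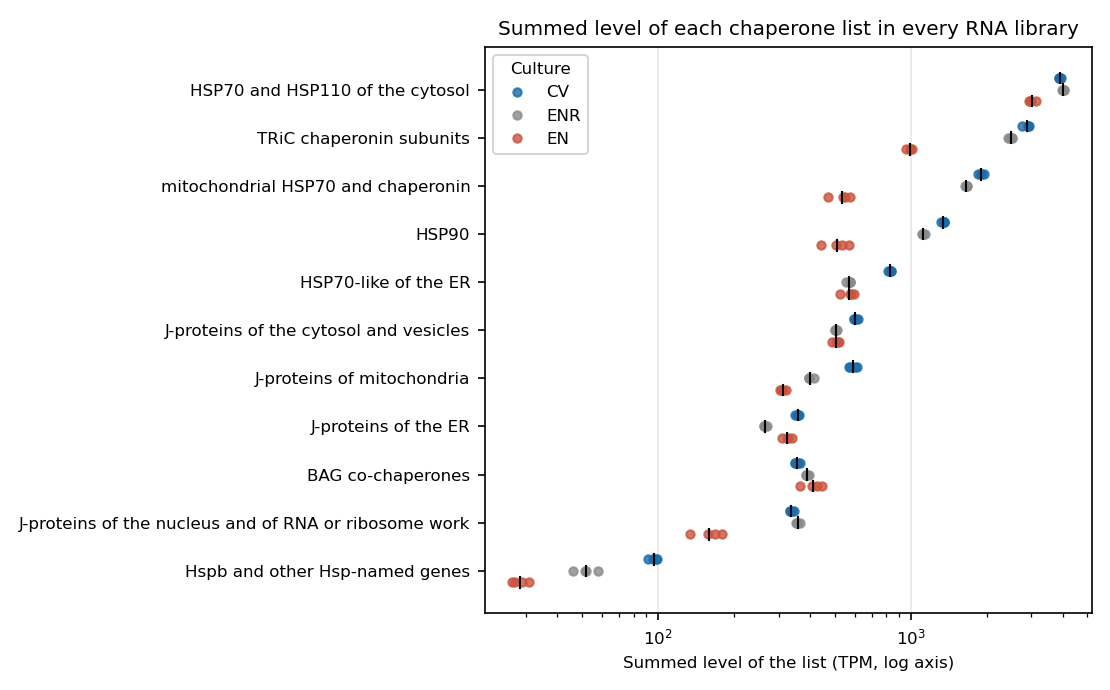
Summed TPM of the members by role list on a log axis, with 1 point for each of the 12 RNA libraries coloured by culture and a vertical mark at each culture mean. The sums of TRiC, of mitochondrial HSP70 and chaperonin, and of HSP90 in all 4 EN libraries lie below those of every CV and ENR library, whereas the ER J-protein sums are lowest in ENR.

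Of the 69 transcripts 68 could be tested. Hspa1l, a testis HSP70, had at most 2 counts in any library and was left out. A transcript was called at an adjusted p below 0.01 in edgeR. Between EN and CV, 41 members (60.3%) were lower and 11 (16.2%) higher, against 41.2% lower and 35.2% higher among all transcripts tested. At least 2-fold lower were 24 members (35.3%), against 20.1% of all transcripts, and at least 2-fold higher were 4 (5.88%), against 15.2%. Members' median log2 fold change was -0.53, and that of all transcripts was -0.08.

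Compared with ENR, EN had 31 lower members (45.6%) and 20 higher ones (29.4%), against 37.2% and 35.5% of all transcripts. Of these, 15 (22.1%) were at least 2-fold lower and 2 (2.94%) at least 2-fold higher, against 17% and 13.1%. Between CV and ENR, 33 members (48.5%) were higher in CV and 11 (16.2%) lower, against 30.2% and 29.8%. Only higher members passed 2-fold there, 7 of them (10.3%) against 6.74% of all transcripts; the lowest member was at -0.69 on the log2 scale, and 6.17% of all transcripts were at least 2-fold lower. The 3 comparisons share libraries and are given side by side. The lists moved unequally: between EN and CV all 3 HSP90, all 3 mitochondrial HSP70 and chaperonin, 7 of 8 TRiC and 8 of 10 cytosolic HSP70 and HSP110 transcripts were lower and none higher, whereas the ER J-proteins had 4 higher and 3 lower of 10. All transcripts had 41.2% lower and 35.2% higher there. Counts of single lists, here and below, rest on few transcripts and are to be read beside the share for the same comparison. With scaling to spike-ins the members counted 45 lower and 3 higher between EN and CV, against 4292 lower and 1473 higher of all 9288 transcripts. In mRNA copies they counted 11 lower and 19 higher, against 1243 lower and 4327 higher of all. The members' median was -0.95 with spike-ins, against -0.49 of all transcripts, and 0.25 in copies, against 0.69.

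**Figure D2:**
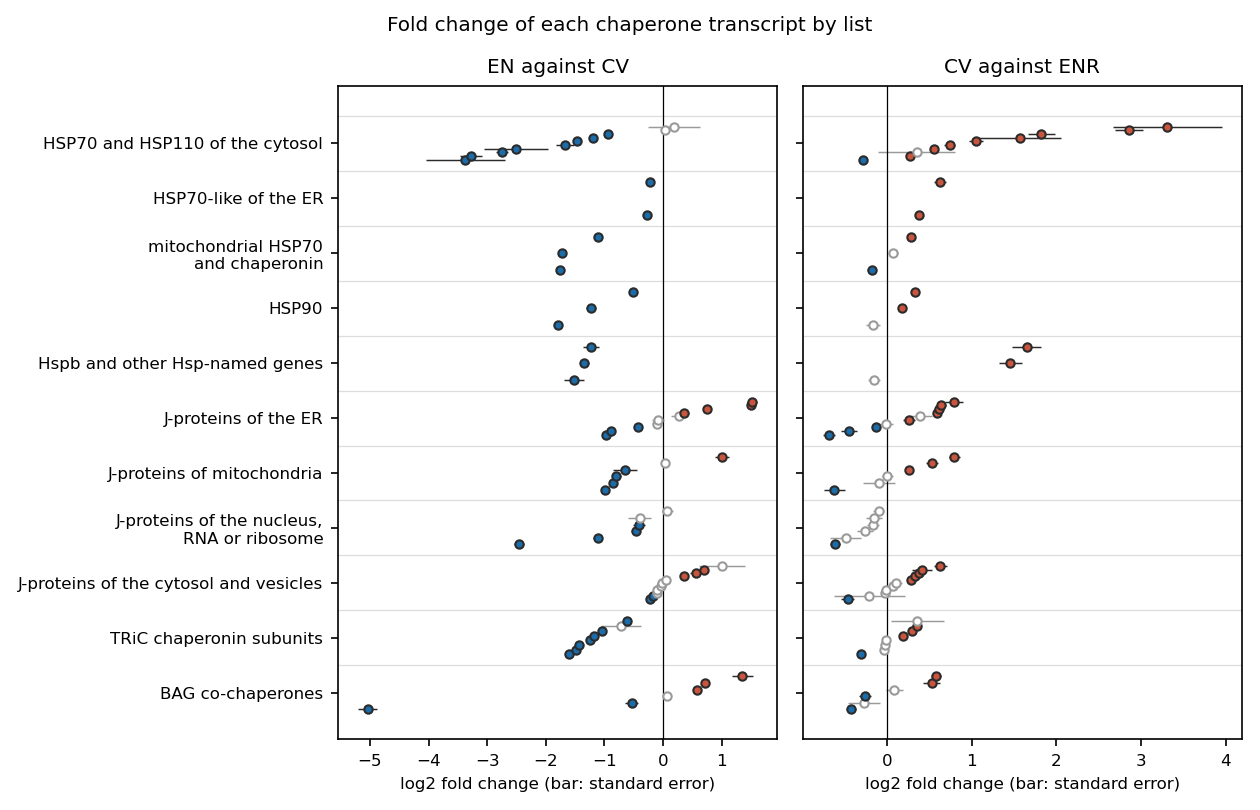
Log2 fold change of each tested member by role list for EN against CV (left) and CV against ENR (right), from edgeR with TMM scaling, with bars for the standard error; coloured points (red higher, blue lower) are called at an adjusted p below 0.01 and white points are not. All 3 HSP90 genes and all 3 genes of the mitochondrial HSP70 and chaperonin list lie below 0 on the left, and 8 cytosolic HSP70 and HSP110 transcripts are called above 0 on the right.

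The promoter sequences were searched for the sites of the stress programmes. Of 67 members 56 had RefSeq windows running from 250 bases before to 50 after a start, 71 windows in all, and Bag4, Cct4, Dnajc11, Dnajc2, Dnajc22, Dnajc5, Hsp90aa1, Hsp90ab1, Hspa13, Hspa8 and Hspa9 had none. A heat shock element of 3 units, written GAANNTTCNNGAA or, on the other strand, TTCNNGAANNTTC, lay in 6 windows (8.451%), those of Dnajb6, Hspd1, Hspe1 and Hsph1, against 0.6027% of 32851 windows of all genes. Hspd1 and Hspe1 are head-to-head neighbours whose windows hold the same DNA, and Dnajb6 and Hsph1 each have overlapping windows that hold the same match. The windows are thus not separate sites. Counted by gene, 4 of 56 member genes had the element, against 179 of 27025 genes. The ER stress element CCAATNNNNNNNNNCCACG, searched on both strands, lay in the windows of Dnajc3, Hsp90b1 and Hspa5 (4.225%, against 0.1187%). The 2-unit forms are common: GAANNTTC lay in 16.9% of member windows and 7.86% of all, and TTCNNGAA in 14.08% and 8.52%, each overlapping the 3-unit form. The 5 stretches that follow carry 3-unit or only 2-unit matches of genes described next, in GRCm38.p6 and read 5′ to 3′ on the gene's strand, with the matched letters in capitals. The 3-unit matches of Hsph1 lie after its start and are not printed. The shared stretch of Hspe1 and Hspd1 is chr1:55088053-55088082 (plus strand, the strand of Hspe1), that of Dnajb6 is chr5:29735818-29735897 (plus), and that of Dnaja4 is chr9:54699439-54699558 (plus). The stretches of Hspa1b, chr17:34959239-34959358, and Hspa1a, chr17:34972157-34972276, are on the minus strand.
Hspe1 and Hspd1: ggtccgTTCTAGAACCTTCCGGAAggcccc
Dnajb6: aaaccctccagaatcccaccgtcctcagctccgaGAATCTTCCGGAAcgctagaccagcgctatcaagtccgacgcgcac
Dnaja4: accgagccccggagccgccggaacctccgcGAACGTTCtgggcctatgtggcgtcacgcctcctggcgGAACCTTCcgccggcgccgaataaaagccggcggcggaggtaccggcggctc
Hspa1b: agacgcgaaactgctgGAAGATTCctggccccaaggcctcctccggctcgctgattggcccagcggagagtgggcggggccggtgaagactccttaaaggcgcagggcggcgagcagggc
Hspa1a: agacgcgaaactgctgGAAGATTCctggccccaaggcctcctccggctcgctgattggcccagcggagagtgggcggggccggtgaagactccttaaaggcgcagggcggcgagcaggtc
The stretch of Hspe1 and Hspd1 holds overlapping matches, that of Dnajb6 a single 3-unit match, and those of Dnaja4, Hspa1b and Hspa1a the 2-unit form. A match is a description of letters and was not tested as a binding site.

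TRiC subunits were lower in EN than in both other cultures. Cct2, the beta subunit and the one with the highest TPM averaged over all libraries, was at 837, 821, 819 and 702 CPM in CV, 640.2, 637, 632 and 583 in ENR and 250.5, 265, 268 and 268 in EN. All EN libraries lay below all others, and CV lay above ENR. Cct2 had log2 fold changes of -1.60 ± 0.05 (SE, adjusted p = 3.6e-13) for EN over CV, -1.24 ± 0.05 (SE, adjusted p = 8.5e-12) for EN over ENR and 0.35 ± 0.05 (SE, adjusted p = 2.4e-05) for CV over ENR. Cct5, the epsilon subunit, was at 548, 547, 546 and 515 CPM in CV, 551, 557, 555 and 546 in ENR and 230.0, 243, 229.8 and 252 in EN. Here CV and ENR overlapped and EN lay below both. The fold change of Cct5 was -1.17 ± 0.04 (SE, adjusted p = 1.4e-13) for EN over CV and -1.21 ± 0.04 (SE, adjusted p = 1.3e-13) for EN over ENR, but -0.04 ± 0.04 (SE, adjusted p = 0.39) for CV over ENR. Cct3, Cct6a, Cct7 and Cct8 were lower in EN than CV by log2 values of -1.42, -1.04, -1.24 and -1.48, and Cct4 by a smaller -0.62. Cct4 was also the 1 subunit lower in CV than in ENR (-0.31 ± 0.04 (SE, adjusted p = 2.2e-06)). Cct6b, the testis form of the zeta subunit, was at 0.714 to 1.75 CPM and was not called in any comparison.

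The EN over CV median of the TRiC list was -1.21 with TMM and kept its sign with spike-in scaling (-1.62), in TPM (-1.52) and in mRNA copies (-0.45). In mRNA copies, however, 1 of 8 was called lower in EN than CV and 0 in EN than ENR, against 7 and 7 with TMM. Of all 9288 transcripts, 1243 and 808 were called lower there in copies. Tcp1, the alpha subunit that the naming rule misses, followed at a log2 fold change of -1.27 ± 0.03 (SE, adjusted p = 9.2e-15). Among 9 transcripts of 8 TRiC and prefoldin partners, 4 were lower and 2 higher in EN than CV, 4 and 2 in EN than ENR, and 1 and 3 in CV than ENR. Of all transcripts, 41.2% were lower and 35.2% higher in the first comparison, 37.2% and 35.5% in the second, and 29.8% and 30.2% in the third. Prefoldin hands unfolded actin and tubulin to TRiC. Its subunit Pfdn4 had a log2 fold change of -1.14 ± 0.11 (SE, adjusted p = 9.7e-08) for EN over CV, whereas Pfdn5 had a log2 fold change of 0.38 ± 0.05 (SE, adjusted p = 1.9e-06).

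Barrel and lid of the mitochondrial chaperonin were both lower in EN than in the other cultures. Hspd1 (HSP60), the barrel, was at 904, 979, 977 and 901 CPM in CV, 1049, 1086, 1065 and 1049 in ENR and 269, 302, 247 and 297 in EN. EN lay far below the other cultures and ENR lay above CV. For Hspd1 the log2 fold changes were -1.76 ± 0.06 (SE, adjusted p = 1.4e-13) for EN over CV, -1.93 ± 0.06 (SE, adjusted p = 6e-14) for EN over ENR and -0.18 ± 0.05 (SE, adjusted p = 0.0077) for CV over ENR. Hspe1 (HSP10), the lid, which shares the printed heat shock elements with Hspd1, was at 259.7, 253, 237 and 237 CPM in CV, 235, 233, 228 and 240.5 in ENR and 78.3, 88.0, 67.6 and 66.2 in EN. EN did not overlap with CV or ENR, which overlapped each other. Log2 fold changes of Hspe1 were -1.72 ± 0.07 (SE, adjusted p = 2.3e-12) for EN over CV, -1.65 ± 0.07 (SE, adjusted p = 4.8e-12) for EN over ENR and 0.08 ± 0.06 (SE, adjusted p = 0.29) for CV over ENR. In TPM the ratio of Hspe1 to Hspd1 stayed between 0.795 and 1.06 over the 12 libraries. Hspa9, the mitochondrial HSP70 that also pulls proteins through the inner membrane, had a log2 fold change of -1.11 ± 0.05 (SE, adjusted p = 1.7e-11) for EN over CV and -0.82 ± 0.05 (SE, adjusted p = 7.5e-10) for EN over ENR. The list's EN over CV median was -1.72 with TMM and -1.01 in mRNA copies, with the same sign under spike-in scaling and in TPM.

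Of 6 J-protein transcripts of mitochondria, 4 were lower and 1 higher in EN than CV, against 41.2% and 35.2% of all transcripts. Dnajc15, an inner membrane partner of the import motor, was at 84.6, 83.4, 79.8 and 72.4 CPM in CV, 48.1, 45.3, 46.0 and 44.9 in ENR and 40.5, 45.6, 36.9 and 38.1 in EN. CV lay above both other cultures, and EN and ENR overlapped. Dnajc15 had a log2 fold change of -1.0 ± 0.07 (SE, adjusted p = 1.7e-09) for EN over CV and 0.79 ± 0.07 (SE, adjusted p = 4.6e-08) for CV over ENR. Dnajc19, a J-protein of the same import motor, had 38.3 to 44.7 CPM over all 12 libraries and overlapping cultures. It was called in no comparison, with a log2 fold change of 0.04 ± 0.06 (SE, adjusted p = 0.59) for EN over CV. Dnajc28 was the mitochondrial J-protein that rose, at 9.97, 8.54, 8.75 and 7.11 CPM in CV, 12.8, 12.1, 14.6 and 13.2 in ENR and 15.5, 16.3, 17.8 and 19.6 in EN. The 3 cultures did not overlap, and its log2 fold changes were 1.01 ± 0.12 (SE, adjusted p = 1.2e-06) for EN over CV, 0.39 ± 0.12 (SE, adjusted p = 0.0059) for EN over ENR and -0.62 ± 0.12 (SE, adjusted p = 0.00034) for CV over ENR. Both transcripts of Dnaja3, the mitochondrial DnaJ homologue Tid1, were lower in EN than CV, at -0.80 and -0.65, and the split of its reads between the 2 is uncertain. Among 8 other genes of mitochondrial protein quality control, 7 were lower in EN than CV and 7 in EN than ENR with none higher, and 4 were higher in CV than ENR with none lower. Of all transcripts, 41.2% were lower in EN than CV, 37.2% lower in EN than ENR and 30.2% higher in CV than ENR. Lonp1, a protease of the matrix, had a log2 fold change of -1.80 ± 0.07 (SE, adjusted p = 2.6e-12) for EN over CV, while Clpx, the unfoldase of another protease, was not called in any comparison.

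All 3 HSP90 genes were lower in EN than in CV and ENR, against 41.2% and 37.2% of all transcripts. Hsp90aa1, the inducible cytosolic form, was at 748, 793, 800.0 and 743 CPM in CV, 622, 621, 600.1 and 611 in ENR and 224, 225, 207 and 238 in EN. The 3 cultures did not overlap, with CV highest and EN lowest. Its log2 fold changes were -1.79 ± 0.04 (SE, adjusted p = 6e-15) for EN over CV, -1.46 ± 0.04 (SE, adjusted p = 7.6e-14) for EN over ENR and 0.33 ± 0.04 (SE, adjusted p = 3.4e-06) for CV over ENR. Hsp90ab1, the constitutive cytosolic form, was at 619, 621, 611 and 649.5 CPM in CV, 688, 687, 703 and 722 in ENR and 285, 266, 207 and 308 in EN. EN again lay below both other cultures, and CV below ENR. Its log2 fold changes were -1.23 ± 0.08 (SE, adjusted p = 1.3e-09) for EN over CV, -1.39 ± 0.08 (SE, adjusted p = 3.3e-10) for EN over ENR and -0.16 ± 0.08 (SE, adjusted p = 0.075) for CV over ENR, the last not called. Relative to each other, inducible over constitutive HSP90 in TPM was 0.996 to 1.14 in CV, 0.736 to 0.788 in ENR and 0.672 to 0.868 in EN, so that CV lay above the others. Hsp90b1 (Grp94), the HSP90 of the ER, was at 756, 776, 779.9 and 760.0 CPM in CV, 663, 685, 679 and 684 in ENR and 539.5, 537, 479.8 and 588 in EN. The cultures did not overlap, and its log2 fold changes were -0.52 ± 0.05 (SE, adjusted p = 5.6e-08) for EN over CV, -0.34 ± 0.05 (SE, adjusted p = 8.7e-06) for EN over ENR and 0.18 ± 0.05 (SE, adjusted p = 0.0031) for CV over ENR. In mRNA copies the sign of Hsp90b1 turned for EN over CV (0.31), whereas the list's median remained negative (-0.48). Of the 3 genes, 1 was called lower in EN than CV in mRNA copies and 0 in EN than ENR. Among all 9288 transcripts these calls numbered 1243 and 808.

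Of 13 co-chaperones of HSP90 and HSP70, 10 were lower and 1 higher in EN than CV, 9 lower and 1 higher in EN than ENR, and 8 higher and 1 lower in CV than ENR. All transcripts had 41.2% lower and 35.2% higher in the first comparison, 37.2% and 35.5% in the second. In the third, 30.2% were higher and 29.8% lower. Fkbp5, an immunophilin of steroid receptor complexes, had a log2 fold change of -4.36 ± 0.16 (SE, adjusted p = 8.8e-13) for EN over CV, and Ppid, an immunophilin as well, had a log2 fold change of -2.37 ± 0.06 (SE, adjusted p = 6.8e-15). Stip1 (Hop), which bridges HSP70 and HSP90, had a log2 fold change of -1.40 ± 0.06 (SE, adjusted p = 3.5e-12). Ppp5c, a phosphatase of HSP90 complexes, was the one higher, at a log2 fold change of 0.25 ± 0.06 (SE, adjusted p = 0.00069). Hsf1 was measured at 8.15 to 12.3 CPM (culture means) and had a log2 fold change of -0.58 ± 0.12 (SE, adjusted p = 0.00041) for EN over CV.

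**Figure D3:**
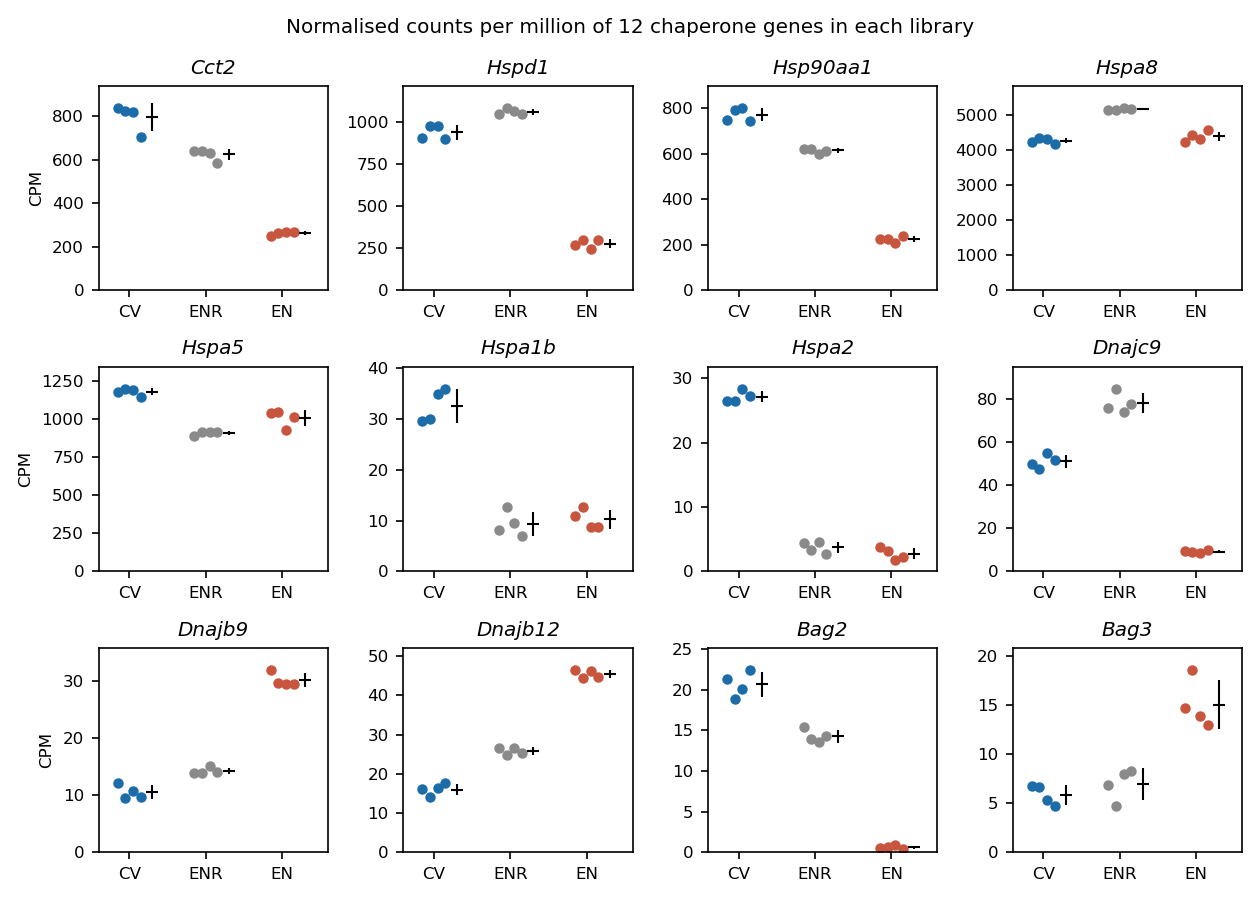
CPM of 12 named members in each of the 12 RNA libraries, coloured by culture, with the mean and SD of the 4 libraries beside the points and every axis starting at 0. Cct2, Hspd1 and Hsp90aa1 are lowest in EN, Hspa1b and Hspa2 are highest in CV, and Dnajb9, Dnajb12 and Bag3 are highest in EN.

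Among the HSP70 proteins of the cytosol, the most abundant gene and the inducible ones behaved differently. Hspa8 (Hsc70), the constitutive HSP70 and the highest member in TPM, was at 4238, 4339, 4316 and 4188 CPM in CV, 5149, 5148, 5206 and 5187 in ENR and 4241, 4434, 4326 and 4564 in EN. ENR lay above both other cultures, whose ranges overlapped. Hspa8 had log2 fold changes of 0.04 ± 0.03 (SE, adjusted p = 0.21) for EN over CV, -0.24 ± 0.03 (SE, adjusted p = 2.3e-06) for EN over ENR and -0.28 ± 0.03 (SE, adjusted p = 7e-07) for CV over ENR. Hspa4, an HSP110 family exchange factor, was at 532, 522, 542 and 492 CPM in CV, 356, 363, 358 and 338 in ENR and 277, 295, 253 and 268 in EN. The cultures separated in the order CV, ENR and EN, and its log2 fold changes were -0.94 ± 0.05 (SE, adjusted p = 3.3e-11) for EN over CV, -0.37 ± 0.05 (SE, adjusted p = 2.6e-06) for EN over ENR and 0.56 ± 0.05 (SE, adjusted p = 3.7e-08) for CV over ENR. Hspa14, which works on nascent chains at the ribosome, and Hspa4l, another HSP110 relative, were lower in EN than CV by log2 values of -1.47 and -1.19. Hsph1 (HSP105), the stress-inducible HSP110, is listed by 2 transcripts. Its main transcript was at 50.8, 46.7, 45.9 and 41.9 CPM in CV, 23.0, 21.4, 21.0 and 23.4 in ENR and 6.83, 5.57, 6.60 and 8.06 in EN. No culture overlapped another, and the log2 fold changes were -2.75 ± 0.10 (SE, adjusted p = 7.6e-13) for EN over CV, -1.70 ± 0.11 (SE, adjusted p = 6.9e-10) for EN over ENR and 1.06 ± 0.08 (SE, adjusted p = 2.7e-08) for CV over ENR. The other Hsph1 transcript stayed between 1.38 and 6.38 CPM and was not called, and how reads were split between the 2 is uncertain.

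The heat-inducible Hspa1a and Hspa1b, whose 250 bases upstream of the start differ at 3 positions and whose coding parts are near-identical, cannot be separated with confidence. Hspa1b was at 29.5, 29.9, 35.0 and 35.9 CPM in CV, 8.19, 12.6, 9.57 and 6.92 in ENR and 11, 12.6, 8.74 and 8.78 in EN. CV lay above EN and ENR, which overlapped. For Hspa1b the log2 fold changes were -1.67 ± 0.16 (SE, adjusted p = 8.1e-08) for EN over CV, 0.15 ± 0.18 (SE, adjusted p = 0.45) for EN over ENR and 1.82 ± 0.16 (SE, adjusted p = 6.8e-08) for CV over ENR. Hspa1a was at 3.23, 6.41, 5.17 and 8.55 CPM in CV, 2.05, 0.982, 2.73 and 2.01 in ENR and 0.402, 0, 2.68 and 1.01 in EN, and over EN its CV value was 7.84 times higher (182 against 25 counts, 95% interval 5.14 to 12.4, counting error only). EN replicate 3 held 15 of those 25 counts, and without it the ratio was 15.1 (8.04 to 32.1). The edgeR log2 fold change of Hspa1a for EN over CV was -2.50 ± 0.55 (SE, adjusted p = 0.0006), and -3.46 without that library. Hspa2, an HSP70 best known from the testis, was at 26.5, 26.4, 28.4 and 27.2 CPM in CV, 4.35, 3.27, 4.56 and 2.77 in ENR and 3.75, 3.21, 1.78 and 2.30 in EN. CV stood apart from both other cultures. Hspa2 had a log2 fold change of -3.28 ± 0.18 (SE, adjusted p = 1.1e-10) for EN over CV, -0.42 ± 0.22 (SE, adjusted p = 0.093) for EN over ENR and 2.86 ± 0.17 (SE, adjusted p = 1e-09) for CV over ENR. Hspa12a, a distant relative of the HSP70 proteins, had 17, 16, 20 and 16 counts in CV, 0, 0, 3 and 3 in ENR and 3, 0, 2 and 0 in EN, that is 69, 6 and 5 in sum. No ENR or EN library reached the level of a CV library. CV was thus 11.1 times ENR (95% interval 4.84 to 31.2) and 14.9 times EN (6.07 to 47.2), by counting error only. In this list 8 of 10 transcripts were higher and 1 lower in CV than in ENR, against 30.2% and 29.8% of all transcripts. Its median for EN over CV kept its sign under all 4 scalings (-1.57 with TMM, -0.89 in mRNA copies), but for EN over ENR it turned from -0.40 with TMM to 0.55 in mRNA copies.

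The other Hsp-named genes, 3 in number, were all lower in EN than CV, and 2 were higher in CV than ENR. Of all transcripts, 41.2% were lower in EN than CV and 30.2% higher in CV than ENR. Hspb11 (Ift25), a subunit of the intraflagellar transport complex of cilia, was at 16.2, 18.2, 18.8 and 16.1 CPM in CV, 6.02, 7.53, 5.16 and 3.52 in ENR and 5.49, 6.00, 6.78 and 6.05 in EN. CV lay above EN and ENR, which overlapped. Hspb11 had a log2 fold change of -1.51 ± 0.17 (SE, adjusted p = 7.3e-07) for EN over CV and 1.65 ± 0.17 (SE, adjusted p = 5.3e-07) for CV over ENR. Hspbap1, a protein that binds Hspb1, had a log2 fold change of -1.23 ± 0.14 (SE, adjusted p = 4.8e-07) and 1.46 ± 0.14 (SE, adjusted p = 1.6e-07) for the same comparisons. Hspbp1, an exchange factor and inhibitor of HSP70, had another order, at 31.0, 28.8, 29.7 and 35.5 CPM in CV, 34.1, 35.2, 34.5 and 35.1 in ENR and 12.1, 11.8, 13.2 and 12.4 in EN. EN lay below overlapping CV and ENR, with a log2 fold change of -1.34 ± 0.08 (SE, adjusted p = 3.8e-10) for EN over CV and -1.49 ± 0.08 (SE, adjusted p = 1.2e-10) for EN over ENR.

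ER members split into genes lower and genes higher in EN. The 3 promoters with an ER stress element are shown because their genes did not follow 1 pattern. They are chr2:34771970-34772089 (plus strand) for Hspa5, chr10:86705445-86705664 (minus) for Hsp90b1 and chr14:118937812-118937931 (plus) for Dnajc3, in GRCm38.p6, with each element in capitals. That of Hsp90b1 has 2 matches, on opposite strands.
Hspa5: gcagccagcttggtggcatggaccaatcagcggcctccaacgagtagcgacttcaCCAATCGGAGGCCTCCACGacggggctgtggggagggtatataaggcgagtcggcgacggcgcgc
Hsp90b1: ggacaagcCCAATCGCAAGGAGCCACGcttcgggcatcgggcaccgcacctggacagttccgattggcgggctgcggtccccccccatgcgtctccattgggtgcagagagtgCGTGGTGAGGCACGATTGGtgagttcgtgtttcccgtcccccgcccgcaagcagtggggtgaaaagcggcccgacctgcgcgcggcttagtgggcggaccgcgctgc
Dnajc3: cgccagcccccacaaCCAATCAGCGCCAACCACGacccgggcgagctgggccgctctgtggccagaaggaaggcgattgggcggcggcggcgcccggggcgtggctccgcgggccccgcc
Hspa5 (BiP), the ER HSP70, was at 1178, 1199, 1193 and 1149 CPM in CV, 892, 914, 915 and 915 in ENR and 1041, 1045, 931 and 1014 in EN. CV was highest and ENR lowest without overlap. Its log2 fold changes were -0.23 ± 0.04 (SE, adjusted p = 3.4e-05) for EN over CV, 0.15 ± 0.04 (SE, adjusted p = 0.0017) for EN over ENR and 0.38 ± 0.04 (SE, adjusted p = 2.8e-07) for CV over ENR. Hspa13, an HSP70-like protein of microsomes, was at 103, 103, 114 and 91.3 CPM in CV, 62.3, 70.4, 67.6 and 66.6 in ENR and 81.5, 79.0, 88.7 and 92.1 in EN. ENR lay below both other cultures, and CV and EN overlapped. Hspa13 had log2 fold changes of -0.26 ± 0.07 (SE, adjusted p = 0.0021) for EN over CV, 0.36 ± 0.07 (SE, adjusted p = 0.00025) for EN over ENR and 0.62 ± 0.07 (SE, adjusted p = 1e-06) for CV over ENR. With spike-in scaling both genes had a negative EN over ENR value (-0.37 and -0.16), and in mRNA copies a positive EN over CV value (0.65 and 0.53). In TPM, Hspa8 was 4.40 to 4.47 times Hspa5 in CV, 6.90 to 7.06 times in ENR and 4.98 to 5.69 times in EN.

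Dnajc3 (p58IPK), an ER J-protein that also restrains the kinase Eif2ak3, was at 193, 190.3, 197 and 175 CPM in CV, 204, 207, 214 and 201 in ENR and 315, 318, 309 and 323 in EN. EN lay above ENR and ENR above CV. For Dnajc3 the log2 fold changes were 0.75 ± 0.04 (SE, adjusted p = 6.1e-11) for EN over CV, 0.62 ± 0.04 (SE, adjusted p = 7.4e-10) for EN over ENR and -0.13 ± 0.04 (SE, adjusted p = 0.0085) for CV over ENR. Dnajb9 (ERdj4), which recruits Hspa5 to the sensor Ern1, was at 12.1, 9.48, 10.7 and 9.64 CPM in CV, 14.0, 13.9, 15.0 and 14.1 in ENR and 31.9, 29.5, 29.4 and 29.5 in EN. It had the same order without overlap. Its log2 fold changes were 1.52 ± 0.09 (SE, adjusted p = 2.6e-10) for EN over CV, 1.08 ± 0.09 (SE, adjusted p = 1.5e-08) for EN over ENR and -0.44 ± 0.09 (SE, adjusted p = 0.00066) for CV over ENR. Dnajb12, a membrane J-protein of ER-associated degradation, was at 16.0, 14.1, 16.3 and 17.6 CPM in CV, 26.6, 24.7, 26.6 and 25.3 in ENR and 46.5, 44.3, 46.2 and 44.8 in EN. Again the cultures did not overlap, and the log2 fold changes were 1.5 ± 0.07 (SE, adjusted p = 1.5e-11) for EN over CV, 0.82 ± 0.07 (SE, adjusted p = 1.8e-08) for EN over ENR and -0.69 ± 0.07 (SE, adjusted p = 6.6e-07) for CV over ENR. Dnajc10 (ERdj5), which reduces disulphides of proteins bound for degradation, went the other way, at 168, 164, 171 and 162 CPM in CV, 108, 105, 117 and 110.0 in ENR and 80.7, 86.7, 89.5 and 83.8 in EN. CV was highest and EN lowest, with a log2 fold change of -0.97 ± 0.04 (SE, adjusted p = 1.2e-11) for EN over CV. Dnajb11 (ERdj3), a soluble partner of Hspa5, was at 111, 121, 114 and 108 CPM in CV, 74.0, 71.8, 66.1 and 78.0 in ENR and 112, 104, 98.8 and 105 in EN. ENR lay below CV and EN, which overlapped, at a log2 fold change of 0.53 ± 0.06 (SE, adjusted p = 4.7e-07) for EN over ENR and 0.64 ± 0.06 (SE, adjusted p = 8.7e-08) for CV over ENR.

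The ER J-proteins had 7 higher and 2 lower of 10 in EN than ENR, and 5 higher and 3 lower in CV than ENR. Of all transcripts, 35.5% were higher and 37.2% lower in EN than ENR, and 30.2% and 29.8% in CV than ENR. Their EN over CV median was 0.09 with TMM and 0.91 in mRNA copies, but -0.33 with spike-in scaling and -0.20 in TPM. Of 11 other ER folding genes, 7 were lower and 2 higher in EN than CV, 3 and 3 in EN than ENR, and none lower and 8 higher in CV than ENR. For EN and CV, 41.2% of all transcripts were lower and 35.2% higher. P4hb, the protein disulphide isomerase, rose with a log2 fold change of 1.53 ± 0.03 (SE, adjusted p = 5.4e-16) for EN over CV, and Pdia6, a relative, fell with a log2 fold change of -1.22 ± 0.06 (SE, adjusted p = 2.8e-11). Hyou1, the HSP110 of the ER, had a log2 fold change of 0.16 ± 0.05 (SE, adjusted p = 0.0082). Calr, a lectin chaperone, had a log2 fold change of -0.36 ± 0.05 (SE, adjusted p = 3.2e-06). Of the sensors, Atf6 had a log2 fold change of 1.11 ± 0.04 (SE, adjusted p = 2.6e-13), Ern1 had a log2 fold change of 1.06 ± 0.10 (SE, adjusted p = 7.6e-08) and Eif2ak3 had a log2 fold change of 0.14 ± 0.06 (SE, adjusted p = 0.057) for EN over CV, the last not called. Of 7 regulators looked up, Ddit3, Hsf2 and Xbp1 had no transcript listed. Among the 4 measured, Hsf1 included, 2 were higher and 1 lower in EN than CV.

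Nuclear and RNA-linked J-proteins had no higher member in any comparison with TMM. Of all transcripts, 35.2% were higher in EN than CV, 35.5% in EN than ENR and 30.2% in CV than ENR. Dnajc9, a J-protein and histone chaperone, was at 50.0, 47.4, 54.7 and 51.7 CPM in CV, 75.7, 84.6, 73.9 and 77.5 in ENR and 9.51, 9.21, 8.38 and 9.79 in EN. ENR was highest and EN lowest without overlap. Dnajc9 had log2 fold changes of -2.46 ± 0.08 (SE, adjusted p = 1.6e-13) for EN over CV, -3.07 ± 0.08 (SE, adjusted p = 1.1e-14) for EN over ENR and -0.61 ± 0.06 (SE, adjusted p = 2.3e-07) for CV over ENR. Dnajc2 (Zuotin), which works with Hspa14 at the ribosome, was at 94.2, 90.0, 91.5 and 91.8 CPM in CV, 97.9, 105, 102 and 107 in ENR and 47.3, 42.2, 33.2 and 46.1 in EN. EN lay below both other cultures, with a log2 fold change of -1.11 ± 0.08 (SE, adjusted p = 2.7e-09) for EN over CV and -1.28 ± 0.08 (SE, adjusted p = 5.4e-10) for EN over ENR. Dnajc8, a protein of the spliceosome, was at 125, 119.9, 122 and 110.2 CPM in CV, 133, 129, 124 and 125 in ENR and 86.7, 87.6, 71.7 and 98.9 in EN. EN lay below overlapping CV and ENR, with a log2 fold change of -0.46 ± 0.07 (SE, adjusted p = 2.8e-05) for EN over CV, though in mRNA copies its value was 0.33. Dnajc21, a factor of ribosome assembly, was not called in any comparison, with a log2 fold change of 0.08 ± 0.10 (SE, adjusted p = 0.48) for EN over CV. The list's EN over CV median was -0.43 with TMM and 0.31 in mRNA copies.

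Of 11 J-proteins of the cytosol and vesicles 6 were not called between EN and CV. Dnaja2, a partner of Hspa8 in refolding, was at 160.7 to 184.9 CPM over all libraries and was called in no comparison, with a log2 fold change of -0.10 ± 0.04 (SE, adjusted p = 0.043) for EN over CV. Dnajc22 likewise had 113.2 to 128.1 CPM and 0.05 ± 0.04 (SE, adjusted p = 0.28). Dnajb1, the J-protein most often induced with Hspa1a by heat, stayed at 39.7 to 49.6 CPM and had a log2 fold change of -0.09 ± 0.07 (SE, adjusted p = 0.23) for EN over CV. Dnajb6, which prevents aggregation and carries the heat shock element printed above, was at 131, 133, 132 and 123 CPM in CV, 100.5, 98.3, 104 and 95.9 in ENR and 107, 105, 115 and 117 in EN. The order CV, EN, ENR held without overlap. For Dnajb6 the log2 fold changes were -0.22 ± 0.05 (SE, adjusted p = 0.00038) for EN over CV, 0.16 ± 0.05 (SE, adjusted p = 0.0067) for EN over ENR and 0.38 ± 0.05 (SE, adjusted p = 2.9e-06) for CV over ENR. Dnajc7, which binds HSP70 and HSP90, was at 56.3, 59.7, 63.1 and 57.7 CPM in CV, 82.2, 85.7, 79.0 and 79.5 in ENR and 99.3, 106, 76.9 and 101 in EN. CV was lowest, and EN and ENR overlapped. It had a log2 fold change of 0.69 ± 0.08 (SE, adjusted p = 8.5e-07) for EN over CV and -0.46 ± 0.08 (SE, adjusted p = 0.00011) for CV over ENR. Dnajb2, a J-protein that binds ubiquitin and steers clients to the proteasome, was at 17.9, 15.6, 15.4 and 17.0 CPM in CV, 11.5, 14.1, 9.72 and 14.1 in ENR and 25.9, 23.8, 22.8 and 24.9 in EN. EN was highest and ENR lowest, and its log2 fold changes were 0.57 ± 0.11 (SE, adjusted p = 0.00019) for EN over CV, 0.98 ± 0.11 (SE, adjusted p = 9.9e-07) for EN over ENR and 0.41 ± 0.11 (SE, adjusted p = 0.0047) for CV over ENR. Dnaja4, whose promoter carries 2 head-to-head pairs, was at 0.267 to 1.15 CPM and was not called. In this list 3 were higher and 2 lower of 11 in EN than CV, and 6 higher and none lower in EN than ENR, whereas with spike-in scaling the counts were 0 and 4, and 0 and 1. With TMM, 35.2% of all transcripts were higher and 41.2% lower in EN than CV, and 35.5% and 37.2% in EN than ENR. With spike-in scaling, 1473 of all 9288 were higher and 4292 lower in EN than CV, and 1094 and 4275 in EN than ENR.

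BAG proteins held both the steepest fall and some of the rises. Bag2, a partner of HSP70 that blocks the ubiquitin ligase Stub1, was at 21.3, 18.8, 20.0 and 22.4 CPM in CV, 15.4, 13.9, 13.5 and 14.3 in ENR and 0.536, 0.642, 0.892 and 0.432 in EN. EN was close to 0 and CV lay above ENR. CV had 636 counts and EN 15, a ratio of 45.7 (95% interval 27.5 to 82.1, counting error only), and the log2 fold changes were -5.04 ± 0.17 (SE, adjusted p = 2.3e-13) for EN over CV, -4.51 ± 0.17 (SE, adjusted p = 1.7e-12) for EN over ENR and 0.53 ± 0.10 (SE, adjusted p = 0.00025) for CV over ENR. Stub1 itself had a log2 fold change of 0.12 ± 0.04 (SE, adjusted p = 0.018) for EN over CV. Bag3, which routes HSP70 clients to autophagy, was at 6.74, 6.67, 5.30 and 4.70 CPM in CV, 6.91, 4.75, 8.05 and 8.31 in ENR and 14.7, 18.6, 13.9 and 13.0 in EN. EN lay above overlapping CV and ENR. It had a log2 fold change of 1.36 ± 0.18 (SE, adjusted p = 5e-06) for EN over CV, 1.09 ± 0.18 (SE, adjusted p = 5e-05) for EN over ENR and -0.27 ± 0.19 (SE, adjusted p = 0.22) for CV over ENR. Bag1, the founding exchange factor of the family and its most abundant member, was at 204, 194, 196 and 191 CPM in CV, 264, 255, 263 and 268 in ENR and 313, 361, 283 and 335 in EN. CV was lowest and EN highest without overlap, and its log2 fold changes were 0.72 ± 0.06 (SE, adjusted p = 1.3e-08) for EN over CV, 0.30 ± 0.06 (SE, adjusted p = 0.00021) for EN over ENR and -0.42 ± 0.06 (SE, adjusted p = 1.1e-05) for CV over ENR. Bag6, which captures mislocalised membrane proteins, was at 46.6, 47.1, 45.1 and 56.9 CPM in CV, 54.2, 63.8, 57.2 and 59.1 in ENR and 76.3, 72.6, 73.0 and 71.1 in EN. Here EN lay above overlapping CV and ENR, with a log2 fold change of 0.58 ± 0.07 (SE, adjusted p = 2.1e-06) for EN over CV. The fold changes of Bag1 and Bag6 for EN over ENR were 0.30 and 0.32 with TMM but -0.22 and -0.19 with spike-in scaling.

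Chromatin at the transcription starts was read from scores, the authors' normalised and rounded read counts in 94469 regions of the mm9 genome. Of the 67 genes 65 had a region within 500 bp of a start, 71 regions in all, of which 20 were also that close to another gene's start. In ATAC-seq, 26 of 71 regions (36.6%) differed between EN and CV at an adjusted p below 0.05 in limma, against 35.2% of all regions and 34.6% of regions at any start. Of these 19 rose and 7 fell from CV to EN. For EN against ENR 19 differed (26.8%, against 24% of all and 19.5% at any start), 13 higher and 6 lower in EN, and between CV and ENR 11 did (15.5%, against 15.8% and 14.8%), 2 higher and 9 lower in CV. The first and the last of these shares are near the background. After quantile normalization the splits were 6 higher and 18 lower, 6 and 14, and 8 and 4, and 13 of the first 26 were still called, with none turned. The shares of all regions under that normalization are not given, so these splits have no background beside them.

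The largest rise in accessibility from CV to EN was at the start of Dnaja2 (chr8:88078021-88079867), where ATAC scores were 50, 54, 53 and 33 in CV, 39, 51, 61 and 61 in ENR and 97, 83, 86 and 83 in EN. EN lay above the other cultures there, with a log2 fold change of 0.89 ± 0.17 (SE, adjusted p = 0.00046) for EN over CV, though its RNA was called in no comparison. At the Dnajb11 start (chr16:22856822-22858751) scores were 223, 239, 189 and 196 in CV, 312, 282, 235 and 213 in ENR and 366, 407, 371 and 370 in EN, with a log2 fold change of 0.84 ± 0.11 (SE, adjusted p = 9.7e-06). Of genes with a start region lower in EN, taking the most abundant transcript of each, the RNA fell for 5, rose for 1 and was not called for 1, and of those with a higher one it fell for 10, rose for 3 and was not called for 7. Over all tested member transcripts, 60.3% were lower and 16.2% higher in EN than CV. These counts use the scores without quantile normalization, after which 13 of the 26 regions were still called. A link between accessibility and RNA was not tested. At Hsp90aa1 (chr12:111941267-111941668) scores were 24, 31, 21 and 36 in CV, 15, 14, 17 and 16 in ENR and 11, 12, 7 and 11 in EN, with a log2 fold change of -1.36 ± 0.21 (SE, adjusted p = 7e-05). A second Hsp90aa1 region, over the gene's other start, had a log2 fold change of -0.28 and was not called. Hspa12a (chr19:58934866-58935799) had scores of 29, 30, 27 and 31 in CV, 19, 15, 18 and 22 in ENR and 15, 14, 12 and 16 in EN, and -0.99 ± 0.17 (SE, adjusted p = 0.0002). Hspa1b had a log2 fold change of -0.61 ± 0.16 (SE, adjusted p = 0.0062) and Hspa2 -0.45 ± 0.14 (SE, adjusted p = 0.016). All 6 of these regions were called after quantile normalization too. Among other members with RNA described above, regions of Hspa8 and Dnajb9 (both 0.26), Hspa5 (0.32), Hspa13 (0.37), Hsp90b1 (0.38), Dnajc3 (0.56) and Bag3 (0.60) were higher in EN than CV on the log2 scale. Of these, only that of Bag3 was still called after quantile normalization. Between CV and ENR the largest called difference was at Dnajc25 (chr4:59008147-59008347), with low scores of 2, 3, 2 and 1 in CV, 8, 6, 7 and 7 in ENR and 2, 3, 5 and 4 in EN. The shared start of Hspd1 and Hspe1, whose RNA fell, was higher in EN than CV, at a log2 fold change of 0.44 ± 0.12 (SE, adjusted p = 0.0072), but was not called after quantile normalization.

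H3K27ac, a mark of active promoters and enhancers, differed between EN and CV at 26 of 71 member regions (36.6%, against 7.03% of all regions and 20.6% of regions at any start), 25 of them higher in EN. Summed scores over all regions were 1622103 to 1760511 in EN and 1345873 to 1406651 in CV. Quantile normalization left 7 regions called, 3 higher and 4 lower, of which Bag3, Dnajb12, Dnajc3 and Hsph1 were in the first 26. With 1 spread for all score levels in place of a trend 0 were called, and 17 were without CV replicate 3, and 11, 9 and 11 without EN replicates 2, 3 and 4. Between CV and ENR 8 were called, all lower in CV (11.3%, against 1.83% of all and 7.53% at any start), which became 1 to 6 without 1 library. After quantile normalization, and with 1 spread for all score levels, 0 of these 8 were called. Dnajc3 had the largest of these, with a log2 fold change of -1.28 ± 0.27 (SE, adjusted p = 0.0082). Between EN and ENR only Hspa4 was called (1.41%, against 1.57% of all and 3.93% at any start), and leaving out any of 5 libraries removed that call.

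At the Dnajb12 start (chr10:59342078-59343657) H3K27ac scores were 94, 77 and 46 in CV, 146, 103 and 114 in ENR and 208, 203 and 186 in EN. At Bag3 (chr7:135666873-135668506) they were 54, 99 and 102 in CV, 201, 139 and 139 in ENR and 202, 223 and 230 in EN. At Dnajc3 (chr14:119336570-119338021) they were 38, 42 and 63 in CV, 116, 129 and 100 in ENR and 132, 94 and 135 in EN. EN lay above CV at each of the 3, with log2 fold changes of 1.51 ± 0.25 (SE, adjusted p = 0.00011), 1.40 ± 0.23 (SE, adjusted p = 0.00013) and 1.33 ± 0.27 (SE, adjusted p = 0.0016). Their RNA rose as well. Log2 fold changes of H3K27ac for EN over CV were 0.74 for Hspa8, 0.74 for Dnajb6, 0.80 for Hspa5, 0.85 for Dnajb9 and 0.91 for Hsp90b1. Over genes with a called H3K27ac rise from CV to EN, RNA rose for 7 (Bag3, Bag6, Dnaja1, Dnajb12, Dnajb9, Dnajc3 and Dnajc7), fell for 12 and was not called for 6. All tested member transcripts had 16.2% higher and 60.3% lower in EN than CV, and a link between H3K27ac and RNA was not tested.

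Among regions called for both ATAC-seq and H3K27ac between EN and CV, Hsph1 was the 1 with opposite signs. At its start (chr5:150437920-150439455) ATAC scores were 143, 147, 134 and 179 in CV, 299, 264, 280 and 230 in ENR and 263, 271, 286 and 252 in EN. CV lay below both other cultures, with a log2 fold change of 0.83 ± 0.10 (SE, adjusted p = 4.6e-06) for EN over CV and -0.83 ± 0.10 (SE, adjusted p = 2.8e-05) for CV over ENR. H3K27ac scores there were 78, 52 and 74 in CV, 52, 50 and 46 in ENR and 18, 20 and 24 in EN. EN was lowest, as in the RNA, with a log2 fold change of -1.66 ± 0.36 (SE, adjusted p = 0.0026) for EN over CV. Both differences were also called after quantile normalization.

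**Figure D4:**
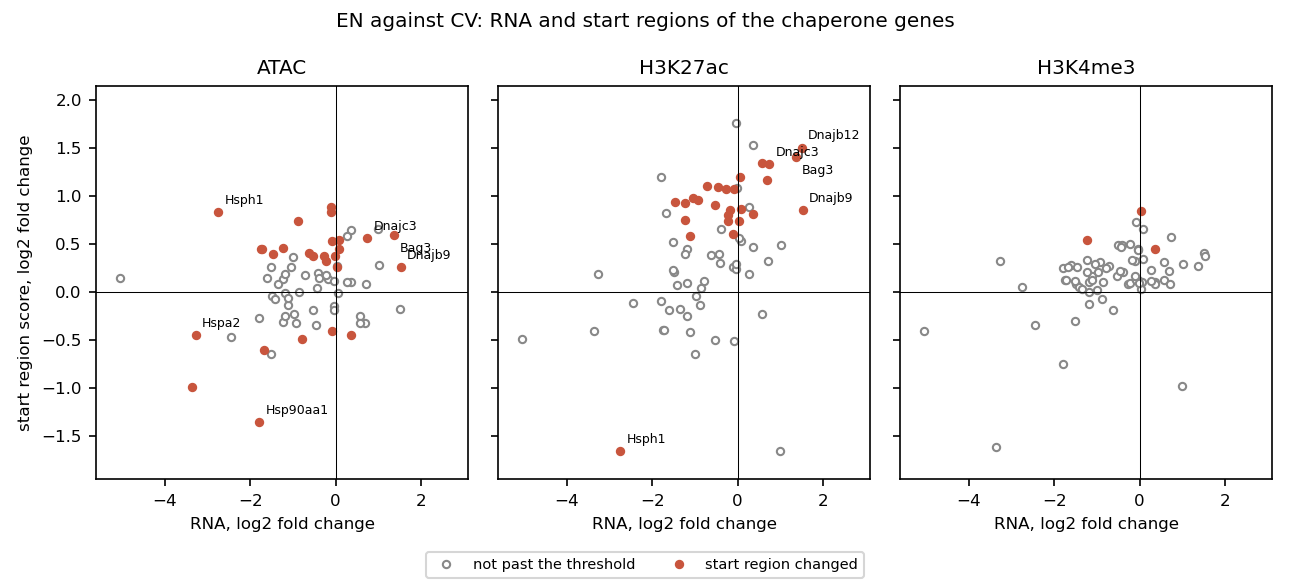
Log2 fold change of EN against CV of the RNA (horizontal) and of the score of the gene's start region (vertical) for ATAC-seq, H3K27ac and H3K4me3, with 1 point per gene and region (the region shared by Hspd1 and Hspe1 gives 2 points) and filled points for regions called at an adjusted p below 0.05. Hsph1 lies above 0 for ATAC-seq (0.83) and below 0 for H3K27ac (-1.66), and Bag3, Dnajb12 and Dnajc3 lie above 0 for H3K27ac and RNA.

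H3K4me3, a mark of active starts, was higher in EN than CV at 3 regions (4.23%, against 4.9% of all and 10% at any start), those of Dnaja1, Hsp90ab1 and Hspa8, and higher in EN than ENR at 3 (4.23%, against 6.18% and 5.79%), those of Dnajb4, Dnaja1 and Hspbap1. The largest between EN and CV was that of Hspa8, with scores of 84, 86 and 73 in CV, 96, 112 and 107 in ENR and 186, 133 and 125 in EN and a log2 fold change of 0.84 ± 0.16 (SE, adjusted p = 0.023) for EN over CV. Without 1 library the calls numbered 0 to 8 and 0 to 7. Between CV and ENR limma called 0 (against 1.13%), with 7 at an unadjusted p below 0.05. None of these calls held after quantile normalization. H3K27me3, a repressive mark, had a median score of 6.11 at member starts. Limma called 0 regions between EN and CV, EN and ENR, and CV and ENR (against 0.528%, 0.0127% and 0.74% of all), with 2, 7 and 1 at an unadjusted p below 0.05, which at these scores does not show that the mark was the same.

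Hnf4g, a nuclear receptor of enterocytes, was mapped once per culture, so that its values have no replicate check. The regions held 84340 reads in CV, 352600 in ENR and 1816497 in EN. Member starts took 2253 reads per 1000000 in CV (95% exact interval 1944 to 2597), 1815 in ENR (1677 to 1961) and 3235 in EN (3153 to 3319), intervals that cover counting error only. Per region this was 31.7, 25.6 and 45.6 at member starts, against 22.4, 23.9 and 34.7 at any start. The highest member regions in EN were those of Dnaja2 (193 reads per 1000000), Hsp90ab1 (181) and the shared start of Hspd1 and Hspe1 (143). In CV these regions had 142, 23.7 and 130, resting on 12, 2 and 11 reads, and in ENR 90.8, 62.4 and 102. For Hsp90ab1 and Hspd1 the RNA was lowest in EN, and for Dnaja2 the RNA did not separate the cultures. A link between Hnf4g reads and RNA was not tested.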

How the data were processed

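The authors quantified strand-specific reads of rRNA-depleted RNA with kallisto (0.43.0 in the submitters' processing notes, a later release in the study's methods) on RefSeq transcripts also quantified as protein, with ERCC spike-ins. Expected counts, TPM and mRNA copies per transcript (a unit other than these) were deposited. Expected counts were rounded and tested with edgeR 4.0.16 (R 4.3.3) by quasi-likelihood over all 12 RNA libraries with TMM scaling, for transcripts above 0 in at least 4 libraries, with Benjamini-Hochberg adjustment and a call below 0.01. ATAC-seq and histone ChIP-seq values are scores, read counts per region that the authors normalised and rounded. They were tested with limma 3.58.1 with a trend on log2(score + 1) for regions above 0 in at least 3 libraries, with a call below 0.05. Hnf4g values are deposited read counts per region, which were scaled to 1000000 reads in regions. A start region overlapped 500 bp around a protein-coding start of mm9. DESeq2 1.42.0, other scalings, filters and left-out libraries were alternatives. Steps were tested on simulated data. The labels do not say that replicates are separate cultures, so p-values measure the spread between these samples, which may be technical. Replicate numbers were not treated as pairs, since deviations of same-numbered libraries did not correlate above 0.1 in every pair of any assay. Members and lists were chosen with earlier results of these data known. Named genes were, in each role list, the 2 with the highest TPM and those with the largest called fall and rise from CV to EN, plus the 3 largest called falls and rises of each other comparison; further members are named where a list is described, and were chosen after their values were seen.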

Additional observations from a re-analysis of the deposited data

Results flagged for a closer look

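In groups of 4 libraries of the named members, 168 sets of values were examined for 1 library far from the other 3, and 11 were found; chance gives about 1 in 20. Among CPM values, Hspa5 was at 892 in ENR replicate 1 against 914 to 915 in the others. Dnajb9 was at 15.0 in ENR replicate 3 (13.9 to 14.1 in the others) and at 31.9 in EN replicate 1 (29.4 to 29.5). Cct2 was at 702 in CV replicate 4 (819 to 837) and at 583 in ENR replicate 4 (632 to 640.2), and Cct5 at 515 in CV replicate 4 (546 to 548). Among ATAC scores, Hsp90b1 was at 490 in EN replicate 2 (401 to 410), Dnajc3 at 261 in CV replicate 1 (215 to 222), Dnajc15 at 58 in ENR replicate 3 (36 to 38), Dnajb11 at 407 in EN replicate 2 (366 to 371) and Bag3 at 106 in EN replicate 1 (116 to 117).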

How the results depend on the processing

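With scaling to spike-ins, members higher in EN than CV numbered 3 (2 by at least 2-fold), higher in EN than ENR 0 (0 by 2-fold) with 23 lower by 2-fold, higher in CV than ENR 10 and lower 3. By limma on TPM, 2 were 2-fold higher in EN than CV, 10 higher in EN than ENR and 0 of them by 2-fold. By limma on mRNA copies, 19 were higher in EN than CV (13 by 2-fold) and 11 lower (10 by 2-fold), 33 higher in EN than ENR (29 by 2-fold) and 4 lower (3 by 2-fold), and 15 higher and 0 lower in CV than ENR. Among all 9288 transcripts, spike-in scaling called 1473 higher in EN than CV and 1094 in EN than ENR. Between CV and ENR it called 1039 higher and 1597 lower. Limma on TPM called 2666 higher in EN than ENR. In mRNA copies 4327 were higher and 1243 lower in EN than CV, and 5442 and 808 in EN than ENR. For CV and ENR the copies gave 1353 and 459. Shares by 2-fold over all transcripts are not given for these scalings. The copy totals ranged from 498750 to 2546650 between libraries. DESeq2 called 12 higher and 37 lower, 21 and 30, and 32 and 11. Without 1 library the counts were 11 and 39 to 41 for EN and CV (3 to 4 and 24 to 25 by 2-fold), 17 to 20 and 30 to 31 for EN and ENR (1 to 3 and 15 to 16 by 2-fold, with 1 without EN replicate 2), and 30 to 33 and 8 to 14 for CV and ENR. The sign turned with spike-ins for EN over ENR of Bag1 (-0.22), Bag6 (-0.19), Dnajb6 (-0.36), Dnajc28 (-0.12), Hspa13 (-0.16) and Hspa5 (-0.37). In TPM it turned for EN over ENR of Dnajb6 (-0.0079) and Hspa5 (-0.015), EN over CV of Dnajc19 (-0.30), Dnajc22 (-0.27) and Hspa8 (-0.28), and CV over ENR of Dnajc3 (0.026). In copies it turned for EN over CV of Dnajb6 (0.60), Dnajc8 (0.33), Hsp90b1 (0.31), Hspa13 (0.53) and Hspa5 (0.65), EN over ENR of Dnaja2 (0.98), Dnajc10 (0.65), Dnajc8 (0.34), Hsp90b1 (0.55), Hspa4 (0.59) and Hspa8 (0.52), and CV over ENR of Dnajc3 (0.055). Their causes were not tested.

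For ATAC-seq regions, without a trend of the spread 15, 4 and 4 were called between EN and CV, EN and ENR, and CV and ENR, and without 1 library 22 to 29, 10 to 19 and 5 to 11. The second fell to 12 and 10 without ENR replicates 2 and 4, and the third to 5 without CV replicate 4 or ENR replicate 2 and to 7 without ENR replicate 1. For H3K27ac, no trend left 0, 0 and 0, quantile normalization 7, 2 and 0, and a mean score of at least 10 gave 5 between EN and ENR. Without 1 library H3K27ac had 9 to 25, 0 to 3 and 1 to 6, the first being 17 without CV replicate 3, 11, 9 and 11 without EN replicates 2, 3 and 4, and the last 1, 4 and 2 without ENR replicates 1, 2 and 4 and 5, 4 and 4 without EN replicates 2, 3 and 4. The H3K27ac call between EN and ENR was absent without ENR replicates 2 or 4 or EN replicates 2, 3 or 4, and became 3 and 2 without CV replicates 3 and 4. For H3K4me3, no trend left 1 and 0 for the EN comparisons, quantile normalization 0 and 0, and a mean score of at least 10 gave 5 and 1; without 1 library they had 0 to 8 and 0 to 7, with 8 and 7 without EN replicate 1. The first was 0 without CV replicates 2 or 3 or EN replicate 2 and 1 without CV or EN replicate 4, and the second 0 without ENR replicates 1 or 4 or EN replicate 4 and 1 without EN replicate 2.

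With a replicate block, RNA counts were 11 and 41, 19 and 31, and 33 and 10, and ATAC counts 29, 25 and 14, whereas H3K27ac had 0 in each comparison and H3K4me3 0 and 0. Both marks had 3 scored libraries per culture, with replicate numbers that differed between cultures. The block therefore leaves little to estimate their spread from, and nothing is concluded from these 0 counts. Same-numbered libraries correlated in their deviations from the culture means by -0.125 to 0.070 for RNA and by 0.0695 to 0.460 for ATAC-seq, where 8 of 12 pairs were above 0.1 and 9 of 12 libraries correlated best with their own number, a hint of a shared replicate effect in ATAC-seq. Since not every pair was above 0.1 and the labels name no shared source, the numbers were not taken as pairs. The block changed no other call count by over 1.5 times. H3K27me3 had a median score of 6.11 at member starts, and summed scores over all regions of 1010511 to 1327017, so that low scores there limit its comparisons.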
